A study of Mus musculus with 11 samples.

Results

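Homeostatic microglia genes, namely P2ry12, P2ry13, Tmem119, Cx3cr1, Siglech, Selplg, Fcrls, Gpr34 and Olfml3, were followed through 4 genotypes of mice in single nuclei of frozen cortex. The labels give every mouse as female, whereas the study's methods name males for RNA sequencing, and which holds here is not settled. The 9 were chosen by name, as genes in wide use as markers of homeostatic microglia, out of 31053 genes in the matrices. All 9 were found, and all 9 passed the filter on low counts. Microglial nuclei were picked with genes outside this list: a nucleus was taken when at least 3 of Inpp5d, Ly86, Ikzf1, Runx1, Dock8 and Fyb had a count. Each count is 1 UMI, a molecular tag for 1 captured RNA molecule.

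The 11 mice, with 1 library each, fell into 4 groups. Non-transgenic mice with intact Ikbkb, the gene for the kinase IKKβ that switches on NF-κB, are called non-transgenic (Ikbkb+/+, n = 4, aged 9.8 to 10.85 months). P301S mice had intact Ikbkb together with the PS19 transgene, a human tau carrying the P301S mutation that builds up in neurons (Ikbkb+/+;P301S+, n = 3, 9.15 to 10.75 months). Knockout mice carried the tau transgene and lacked Ikbkb in microglia (Ikbkb-/-;P301S+, n = 2, 8.39 to 9.15 months). Active IKKβ mice carried the tau transgene and a constitutively active IKKβ in microglia (IkbkbCA;P301S+, n = 2, 9.8 to 10.85 months). By the study's methods, knockout and active IKKβ mice had an inducible Cre recombinase inserted in 1 copy of Cx3cr1, control mice had both copies intact, and all groups received tamoxifen. In contrasts with control mice, the inserted Cre and the change in Ikbkb therefore cannot be told apart, for Cx3cr1 itself or for the other genes. The titles also give a breeding line. Non-transgenic replicates 1 and 2, P301S replicates 1 and 2 and both knockout mice came from the floxed Ikbkb line. Non-transgenic replicates 3 and 4, P301S replicate 3 and both active IKKβ mice came from the IkbkbCA line. All knockout mice were of the first line and all active IKKβ mice of the second.

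Homeostatic microglia survey the tissue with motile processes and hold a set of surface receptors that sense nucleotides, chemokines and glycans. In injury, ageing and neurodegeneration microglia can lower these genes while raising others, such as Apoe, Lpl and Itgax, in the state known as disease-associated microglia. The 9 genes cover nucleotide and lipid receptors (P2ry12, P2ry13, Gpr34), the receptor for the neuronal chemokine CX3CL1 (Cx3cr1), Siglec-family and Fc-receptor-like surface proteins (Siglech, Fcrls), a selectin ligand (Selplg), a transmembrane protein used as a microglial marker (Tmem119) and a secreted olfactomedin-family protein (Olfml3).

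In the GENCODE M21 annotation of GRCm38, 4 of the 9 genes lie on chromosome 3, all on the minus strand: P2ry13 (chr3:59207892-59210882), P2ry12 (chr3:59216272-59262871), Fcrls (chr3:87250758-87263738) and Olfml3 (chr3:103722222-103738001). P2ry12 and P2ry13 are neighbours, with 5389 bases between them, and both lie inside Med12l on the opposite strand. Tmem119 (chr5:113793729-113800516) and Selplg (chr5:113818536-113832644), both on the minus strand, are neighbours too, with 18019 bases between them. Siglech is on the plus strand (chr7:55768178-55778925). Gpr34, also on the plus strand (chrX:13632089-13640858), lies inside Cask on the opposite strand. Cx3cr1 (chr9:119901616-120069879, minus strand) is annotated over 168264 bases that hold Gorasp1, Csrnp1 and Xirp1 on the same strand, so a read from the shared stretches may not have been assigned to it.

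RefSeq promoters of GRCm38.p6, 250 bases before to 50 after the start, were matched for 6 of the 9 genes (P2ry12, P2ry13, Fcrls, Olfml3, Siglech, Cx3cr1) and not for Tmem119, Selplg and Gpr34. They were searched on both strands for the core GAGGAA bound by PU.1, the factor that sets up the myeloid lineage. The NF-κB consensus was searched for too, and so was a loose MEF2-like pattern, CTA and TAG with any 4 bases between them. The PU.1 core was found in the promoters of Fcrls, P2ry13 and Siglech and in 28.3% of all 32851 promoters. The NF-κB consensus was found only in that of P2ry12 among the 6, 51 bases before the start on the strand opposite to the gene, and in 8.46% of all promoters. The MEF2-like pattern, which reads the same on both strands, was found only in that of Cx3cr1 among the 6 and in 3.69% of all promoters. It is wider than a MEF2 site, so a match need not be one. A match is a string of letters and not evidence of binding. The 3 promoters with the PU.1 core are shown because they include Fcrls and Siglech, the genes whose level passed the test below. Capitals mark GAGGAA or, for Siglech, its reverse complement.
Fcrls (chr3:87263475-87263774, minus strand): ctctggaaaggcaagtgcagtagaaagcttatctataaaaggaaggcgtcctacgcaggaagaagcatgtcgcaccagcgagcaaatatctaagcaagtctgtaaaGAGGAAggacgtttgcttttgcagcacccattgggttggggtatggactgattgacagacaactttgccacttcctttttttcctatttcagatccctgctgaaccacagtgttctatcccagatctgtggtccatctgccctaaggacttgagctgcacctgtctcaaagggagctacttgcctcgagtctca
P2ry13 (chr3:59210833-59211132, minus strand): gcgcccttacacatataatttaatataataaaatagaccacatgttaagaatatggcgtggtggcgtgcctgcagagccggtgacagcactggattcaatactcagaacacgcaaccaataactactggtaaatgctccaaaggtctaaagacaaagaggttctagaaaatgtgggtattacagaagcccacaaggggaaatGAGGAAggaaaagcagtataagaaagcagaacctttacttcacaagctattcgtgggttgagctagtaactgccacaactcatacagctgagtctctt
Siglech (chr7:55767934-55768233, plus strand): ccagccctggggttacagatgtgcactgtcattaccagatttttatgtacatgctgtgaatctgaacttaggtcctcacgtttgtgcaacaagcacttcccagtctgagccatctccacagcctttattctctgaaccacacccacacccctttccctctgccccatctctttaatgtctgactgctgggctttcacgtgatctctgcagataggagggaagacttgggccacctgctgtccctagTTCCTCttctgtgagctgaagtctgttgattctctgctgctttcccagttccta

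Of 114118 barcodes, 112539 nuclei passed quality limits and 5207 passed the gate. Of these, 644 (12.4%) also carried at least 3 of 6 markers of neurons, other glia or vessels and were left out in place of a doublet call, which left 4563 microglial nuclei. Non-transgenic mice gave 1134 of them, P301S mice 1361, knockout mice 756 and active IKKβ mice 1312, from 187 to 757 per mouse, and gave 469145 to 1936791 UMIs per mouse. Independent microglial genes (Csf1r, C1qa, Trem2, Spi1 and others, 11 in all) summed to 2458 to 3559 CPM (UMIs of a gene per 1000000 UMIs of the gated nuclei) in every mouse, with Itgam alone at 0 in 9 of 11 mice. Another 86 of the nuclei (1.88%) carried at least 3 markers of other leukocytes. Ikbkb itself stood at 110 to 143 CPM in the 7 mice with unaltered Ikbkb, 101 and 115 CPM in the knockout and 145 and 148 CPM in the active IKKβ mice. Counts cover the whole gene, so reads outside the deleted part are included and this is no measure of the deletion. In all, 1599 of the 112502 distinct barcodes (1.42%) occurred in more than 1 library.

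The 9 genes were far higher in the gated nuclei than in other cells of the cortex. Across 7 other brain classes, the highest pooled level was 19.6 CPM, for P2ry12 in astrocytes. P2ry12 ranged from 583 to 1200 CPM in the microglia of single mice. Tmem119 stayed under 1 CPM in the pooled nuclei of each of these classes. To compare detection at 1 depth, 4535 microglial nuclei and 5500 neuronal nuclei were thinned to 1000 UMIs each. P2ry12 then had a UMI in 45.4 to 61.5% of microglial nuclei per mouse and in 0.873% of neuronal nuclei. Cx3cr1 was seen in 37.6 to 54.9% against 0.418%, Selplg in 37.3 to 57.4% against 0.0727% and Siglech in 31.8 to 53.5% against 0.0727%. Gpr34 was seen in 9.58 to 20.6% against 0.0727% and Tmem119 in 7.94 to 18.9% against 0.0182%. Olfml3 was seen in 1.48 to 10.4% against 0.0364%. P2ry13 had a UMI in 2.18 to 5.76% of microglial nuclei. Fcrls had a UMI in 2.37 to 36.1%. Both had 0 positive neuronal nuclei, which allows a share of up to 0.0545%. Without thinning, at the nuclei's own median depths of 1468.5 to 2497 UMIs per mouse, P2ry12 was seen in 61.4 to 81.3% and Fcrls in 6.28 to 59.4%. Intervals and limits from counts cover counting error only.

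The 9 genes differed in how far they reached into other leukocytes within the gate. In the 63 nuclei with at least 3 markers of border-associated macrophages (Mrc1, F13a1, Cd163 and others), Fcrls was at 251 CPM (36 UMIs, exact 95% Poisson interval 176 to 348) and P2ry12 at 454 CPM (65 UMIs, 350 to 579). Cx3cr1 was at 265 CPM (38 UMIs), Siglech at 147 CPM (21 UMIs), Selplg at 105 CPM (15 UMIs) and Gpr34 at 14.0 CPM (2 UMIs). In the same nuclei, pooled over all mice, Tmem119 and Olfml3 had 0 UMIs (each up to 25.8 CPM) and P2ry13 had 1. In the 23 nuclei with T cell markers, Selplg, which leukocytes use to roll on vessel walls, was at 338 CPM (20 UMIs, interval 206 to 522) and Cx3cr1 had 1 UMI, while the other 7 genes had 0.

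**Figure D1:**
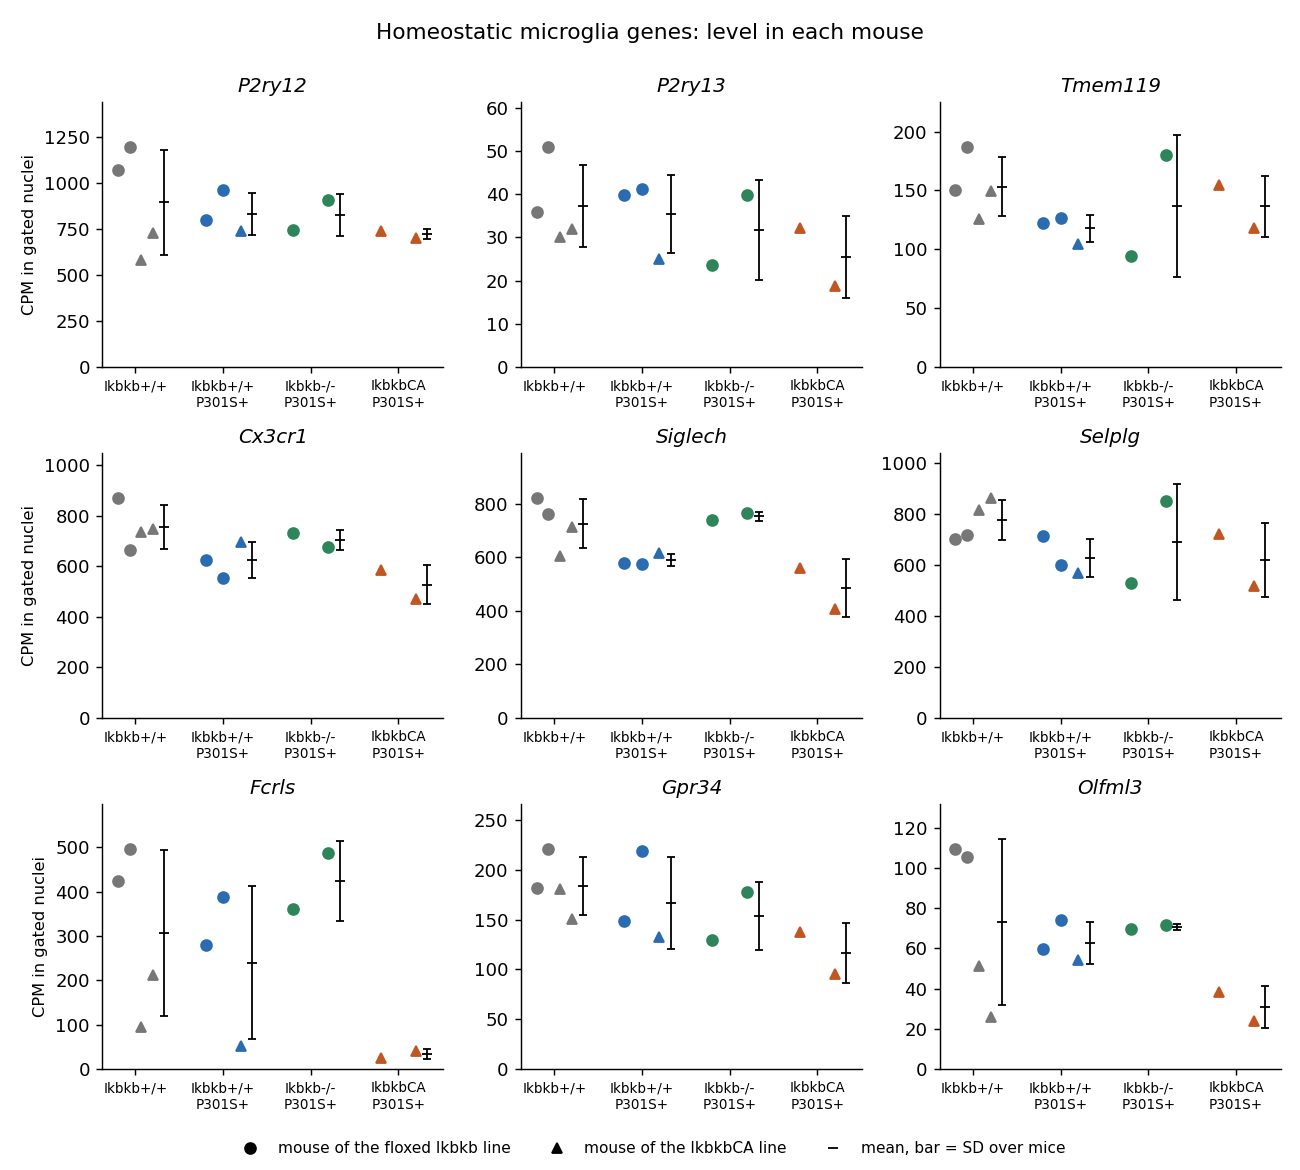
Level of each of the 9 genes in CPM (vertical axes, from 0) in the gated microglial nuclei of each mouse, by genotype. Circles are mice of the floxed Ikbkb line, triangles mice of the IkbkbCA line, and bars give the mean ± SD over mice. Fcrls lay at 25.4 and 41.2 CPM in active IKKβ mice, under each of the other 9 mice.

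The first comparison asked whether the tau transgene moved these genes when Ikbkb was intact. No member passed the test (0 of 9), against 0.0103% of all 9679 genes tested. All 9 values were negative, and their median was -0.26 on the log2 scale against -0.01 over all genes. Siglech, a receptor of the Siglec family, was at 823, 763, 604 and 711 CPM in non-transgenic mice and at 579, 575 and 617 CPM in the P301S mice. The P301S values thus lay close together at the lower end, with 1 non-transgenic mouse inside their range. The log2 fold change was -0.29 ± 0.13 (SE, adjusted p = 0.74, edgeR's quasi-likelihood test). Cx3cr1 was at 872, 662, 737 and 746 CPM in non-transgenic mice and at 626, 555 and 695 CPM in P301S mice, and the ranges overlapped. Its log2 fold change was -0.26 ± 0.13 (adjusted p = 0.787). Tmem119 was at 150, 187, 126 and 150 CPM against 122, 127 and 105 CPM, with 1 P301S mouse just above the lowest non-transgenic mouse, and gave -0.40 ± 0.20 (adjusted p = 0.792). Selplg was at 701, 717, 815 and 864 CPM against 712, 600 and 569 CPM, again with overlap, and gave -0.31 ± 0.16 (adjusted p = 0.798). The other 5 genes lay between -0.42 (Fcrls) and -0.10 (P2ry12), all with standard errors of 0.19 or more. The value of Fcrls turned to 0.16 without P301S replicate 3, the only P301S mouse of the IkbkbCA line. With the line in the fit it was -0.84 ± 0.25 (adjusted p = 0.278). Within the IkbkbCA line alone it was -1.61 ± 0.38 (adjusted p = 0.0619) and within the floxed Ikbkb line -0.45 ± 0.18 (adjusted p = 0.792). For no member (0 of 9) did the P301S mice lie wholly under the non-transgenic mice, while 2.68% of all genes did. At an unadjusted p under 0.05 there was 1 member, Siglech, where 6.58% of all genes were, and DESeq2 called 0 members and 3 genes in all.

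Genes of the disease-associated state did not pass here either. Of 15 disease-associated microglia genes, 9 could be tested and 6 (Cst7, Clec7a, Spp1, Gpnmb, Ctsd, Cd63) had too few counts. All 9 were positive, from 0.08 (Tyrobp) and 0.19 (Trem2) to 3.21 (Lpl) with a median of 1.51 on the log2 scale, and 0 were called. Lpl, Itgax, Axl and Csf1 reached at most 6.72, 5.33, 13.4 and 15.7 CPM in non-transgenic mice. They passed the filter on low counts through mice of other groups, which favours a positive sign here. The count of positive genes and the median were thus partly fixed by the filter. Lpl, a lipase, gave 3.21 ± 0.79 (adjusted p = 0.239) at 0 to 48.2 CPM in P301S and 0 to 6.72 CPM in non-transgenic mice, so the ranges overlapped. Apoe, the lipid carrier, gave 1.51 ± 0.44 (adjusted p = 0.342). Of 20 further homeostatic genes, 19 were tested (all but Adora3), 15 were negative and 0 were called, with a median of -0.14.

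The second comparison asked whether removing Ikbkb from microglia moved the genes in tau mice. No member was called (0 of 9), and neither was any gene, 0% of all 9679 (5.35% at an unadjusted p under 0.05, 0 by DESeq2). Values were mixed, 6 being positive and 3 negative around a median of 0.16 on the log2 scale. Of the 19 further homeostatic genes tested 17 were positive (median 0.12) and of the 9 disease-associated genes tested 7 were negative (median -0.42), with 0 called in either list. Siglech stood at 739 and 765 CPM in the knockout mice, above all 3 P301S mice at 575 to 617 CPM and inside the non-transgenic range. Its log2 fold change against P301S mice was 0.35 ± 0.16 (adjusted p = 0.927). It was the only member (1 of 9) whose knockout mice lay wholly above the P301S mice, as 10.5% of all genes did. Fcrls was at 360 and 487 CPM in the knockout and 280, 388 and 51.2 CPM in the P301S mice, and gave 0.89 ± 0.56 (adjusted p = 0.94). Within the floxed Ikbkb line, which holds both knockout mice, Fcrls gave 0.31 ± 0.18 (adjusted p = 0.816) and Siglech 0.39 ± 0.14 (adjusted p = 0.62).

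The 2 knockout mice differed from each other in several members. Selplg was at 529 and 850 CPM, Tmem119 at 94.1 and 180 CPM, P2ry13 at 23.5 and 39.9 CPM and Gpr34 at 130 and 178 CPM. For each of these genes knockout replicate 1 lay under each of the 7 control mice and replicate 2 inside their range. The share of all genes with this pattern was not counted, so it describes these 2 mice only. Against non-transgenic mice, 0 of 9 members passed, at a background of 0%, and 0 had an unadjusted p under 0.05, where 4.65% of all genes did. The further homeostatic genes had a median of 0.00 (10 of 19 positive) and the disease-associated genes one of 0.63 (9 of 9 positive), again with 0 called. The latter include Lpl, Itgax, Axl and Csf1, which did not pass the filter on low counts through non-transgenic mice. In this comparison 0 of 9 members had both knockout mice under all non-transgenic mice, against 6.18% of all genes. The 95% intervals, from the SE and the degrees of freedom of the fit, still allowed sizeable shifts. For P2ry12, a receptor that guides microglial processes to released ATP and ADP, the interval ran from -0.57 to 0.33 on the log2 scale, and for Fcrls from -0.63 to 1.56.

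**Figure D2:**
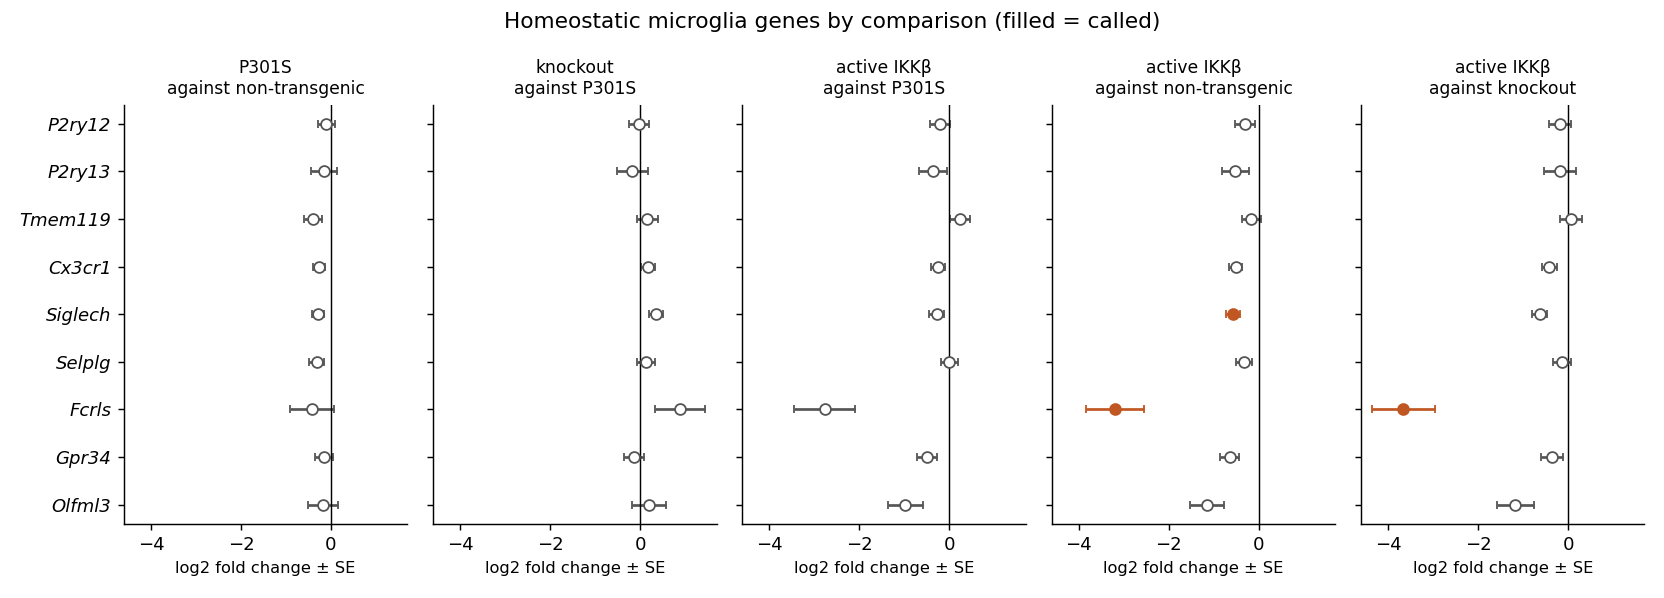
Log2 fold change ± SE (horizontal axes) of the 9 genes in 5 comparisons of genotypes, from edgeR. Filled points passed the test, which were Siglech and Fcrls for active IKKβ against non-transgenic mice and Fcrls for active IKKβ against knockout mice.

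The third comparison set active IKKβ mice against each of the other 3 groups. Non-transgenic mice lack the tau transgene, so in that contrast tau and active IKKβ cannot be told apart. Against P301S mice, which share the transgene, no member passed (0 of 9). Fcrls and Siglech were lower in active IKKβ than in non-transgenic mice, and Fcrls was lower than in knockout mice. The other 7 genes did not pass in any of the 3 contrasts. Fcrls, an Fc-receptor-like scavenger molecule, stood at 25.4 and 41.2 CPM in the active IKKβ mice. Non-transgenic mice were at 424, 497, 94.1 and 211 CPM and P301S mice at 280, 388 and 51.2 CPM. Both active IKKβ mice thus lay under each of the other 9 mice, but P301S replicate 3, of the same line, came close to them. The log2 fold change was -3.19 ± 0.65 against non-transgenic mice (adjusted p = 0.00899) and -3.66 ± 0.70 against knockout mice (adjusted p = 0.0098). Against P301S mice it was -2.78 ± 0.67 (adjusted p = 0.0501), just over the threshold, and without P301S replicate 3 it was -3.35 ± 0.49 (adjusted p = 0.000595). That replicate is the only P301S mouse of the IkbkbCA line. Without it, active IKKβ and the breeding line cannot be told apart in this contrast. With either active IKKβ mouse left out, the value against non-transgenic mice was -2.87 or -3.57 and no longer passed (adjusted p = 0.104 and 0.0583). The difference from knockout mice did not pass without knockout replicate 2 (-3.44, adjusted p = 0.0617), without active IKKβ replicate 1 (-3.34, adjusted p = 0.095) or without active IKKβ replicate 2 (-4.03, adjusted p = 0.0602). With the breeding line in the fit it was -1.67 ± 0.42 (adjusted p = 0.178). Knockout replicate 1 was the youngest mouse (8.39 months), knockout replicate 2 was as old as P301S replicate 1 (9.15 months), and with age in the fit the difference was -2.19 ± 0.84 (adjusted p = 0.772).

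Depth and markers of other cells were measured beside Fcrls, and their part in its level was not tested. The median UMI count per nucleus was 2368.5 and 2497 in the active IKKβ mice, against 1468.5 to 2468 in the other mice, so the ranges overlapped. After thinning to 1000 UMIs, the log2 fold change of Fcrls against non-transgenic mice was -3.37 ± 0.59 (adjusted p = 0.000589). The 8 border-associated macrophage markers summed to 56.8 and 171 CPM in the active IKKβ mice, 46.5 to 363 CPM in the non-transgenic, 124 to 273 CPM in the P301S and 196 and 211 CPM in the knockout mice, with at most 4 of the 8 at 0 in any mouse. With nuclei carrying other leukocyte markers left out, the same contrast gave -3.19 ± 0.66 (adjusted p = 0.00793).

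Siglech stood at 560 and 408 CPM in the active IKKβ mice, under the 9 others at 575 to 823 CPM. The log2 fold change was -0.58 ± 0.15 against non-transgenic mice (adjusted p = 0.0458), -0.63 ± 0.17 against knockout mice (adjusted p = 0.0977) and -0.29 ± 0.16 against P301S mice (adjusted p = 0.702). The first of these was close to the threshold. With the breeding line in the fit it was -0.52 ± 0.16 (adjusted p = 0.148), and without active IKKβ replicate 2 it was -0.37 ± 0.19 (adjusted p = 0.541).

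Cx3cr1 was at 584 and 472 CPM in the active IKKβ mice, against 732 and 677 CPM in the knockout mice, which carry the same inserted Cre. The active IKKβ values lay under both knockout mice and under all 4 non-transgenic mice, and overlapped the P301S mice. Against non-transgenic mice its log2 fold change was -0.51 ± 0.15 (adjusted p = 0.0732) and against knockout mice -0.42 ± 0.17 (adjusted p = 0.373). Gpr34, a receptor for lysophosphatidylserine, was at 138 and 95.2 CPM, under the non-transgenic mice at 151 to 221 CPM, and gave -0.65 ± 0.21 (adjusted p = 0.135). Olfml3 was at 38.3 and 23.6 CPM in the active IKKβ mice. Its levels were 110, 106, 51.5 and 25.7 CPM in non-transgenic mice, 59.9, 74.3 and 54.0 CPM in the P301S mice and 69.8 and 71.9 CPM in the knockout mice. The log2 fold changes of Olfml3 were -1.15 ± 0.37 (adjusted p = 0.124), -0.98 ± 0.38 (adjusted p = 0.402) and -1.17 ± 0.41 (adjusted p = 0.286) in that order. P2ry12 was at 742 and 703 CPM, inside the non-transgenic range of 583 to 1200 CPM. P2ry13 was at 32.1 and 18.8 CPM, against 30.2 to 51.1 CPM. Tmem119 was at 154 and 118 CPM and Selplg at 722 and 518 CPM, with active IKKβ replicate 2 the lower of the pair for 8 of the 9 genes, all but Fcrls.

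Counted over the 9 members, 2 were called against non-transgenic mice, where 2.81% of all genes were. Against P301S mice 0 members were called, where 1.14% of all genes were, and DESeq2 also called 0 members, at 0.858% of all genes. Against knockout mice 1 was called, where 1.18% of all genes were. Members at an unadjusted p under 0.05 numbered 5, 3 and 4 against non-transgenic, P301S and knockout mice, where 13%, 8.46% and 9.68% of all genes were. The median log2 fold changes were -0.52, -0.29 and -0.36. All 9 were negative in the first contrast and 8 of 9 in each of the others, Tmem119 being the exception at 0.23 ± 0.22 and 0.08 ± 0.24. Members whose active IKKβ mice lay wholly under the other group numbered 4 against non-transgenic mice (Cx3cr1, Siglech, Fcrls, Gpr34), at 9.46% of all genes. They numbered 3 against P301S mice (Siglech, Fcrls, Olfml3), at 10.9%, and 5 against knockout mice (P2ry12, Cx3cr1, Siglech, Fcrls, Olfml3), at 21.7%. These 3 contrasts share the active IKKβ mice and are not independent.

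Among the 19 further homeostatic genes tested, 2 were called lower against non-transgenic mice, 1 against P301S mice and 1 against knockout mice, and 0 were called higher. Crybb1, a crystallin gene expressed by microglia, was at 10.9 and 14.5 CPM in the active IKKβ mice and 51.1 to 92.4 CPM in the non-transgenic mice. Its log2 fold change was -2.40 ± 0.34 (adjusted p = 0.00036), with -1.73 ± 0.37 against P301S mice (adjusted p = 0.024) and -2.44 ± 0.37 against knockout mice (adjusted p = 0.00126). Upk1b, a tetraspanin gene, was at 20.6 and 29.0 CPM against 46.6 to 140 CPM in the non-transgenic mice and gave -1.78 ± 0.31 (adjusted p = 0.00254). The medians of this list were -0.29, -0.16 and -0.28 in the same 3 contrasts. Of the 9 disease-associated genes tested, Axl (3.59 ± 0.56, adjusted p = 0.000843) and Itgax (3.71 ± 0.75, adjusted p = 0.0079) were called higher against non-transgenic mice. Axl was at 82.9 and 110 CPM in active IKKβ and 3.41 to 13.4 CPM in non-transgenic mice. Itgax was at 25.9 and 64.9 CPM against 2.24 to 5.33 CPM. Both fold changes are thus set against levels of few UMIs. The disease-associated list had a median of 0.42 against non-transgenic mice with 8 of 9 positive, where the filter on low counts favoured positive signs as above. Its median was -0.51 against P301S mice and -0.22 against knockout mice, each with 7 of 9 negative. For P301S against non-transgenic mice, Axl gave 2.69 ± 0.59 (adjusted p = 0.148) and Itgax 2.92 ± 0.80 (adjusted p = 0.317). For active IKKβ against P301S mice, Axl gave 0.90 ± 0.41 (adjusted p = 0.546) and Itgax 0.79 ± 0.51 (adjusted p = 0.776). None of these values passed. Axl and Itgax also had positive values for the IkbkbCA line against the floxed Ikbkb line with genotype in the fit, which did not pass (Axl 1.96 ± 0.41, adjusted p = 0.0785; Itgax 1.91 ± 0.65, adjusted p = 0.469). With the line in the fit the differences from non-transgenic mice were 2.99 ± 0.41 for Axl (adjusted p = 0.000321) and 3.14 ± 0.67 for Itgax (adjusted p = 0.0186). Ank, a phosphate transporter, was called lower against P301S mice, at -1.14 ± 0.23 (adjusted p = 0.0173). Crybb1 and Upk1b still passed against non-transgenic mice with the line in the fit, and so did Ank against P301S mice, while Crybb1 no longer passed against P301S mice (-1.60 ± 0.40, adjusted p = 0.101) or knockout mice (-2.22 ± 0.46, adjusted p = 0.0577).

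At equal depth, the share of nuclei with a UMI of Fcrls was lowest in the active IKKβ mice. Fcrls had a UMI in 2.37 and 3.70% of thinned nuclei in the active IKKβ mice. The shares were 33.5, 36.1, 7.33 and 19.8% in the non-transgenic, 25.7, 33.3 and 5.82% in the P301S and 27.9 and 34.1% in the knockout mice. For Siglech the means were 36.6% ± 6.77 (SD, n = 2) in active IKKβ, 43.8% ± 2.51 (n = 3) in P301S, 47.7% ± 3.89 (n = 4) in non-transgenic and 51.0% ± 3.54 (n = 2) in knockout mice. Cx3cr1 was seen in 40.4% ± 3.90 in active IKKβ, 47.1% ± 3.16 in P301S, 50.6% ± 0.495 in knockout and 51.0% ± 4.02 in non-transgenic mice. The last pair did not differ beyond their spread. P2ry12, with means of 48.6 to 54.8%, overlapped between all 4 groups.

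**Figure D3:**
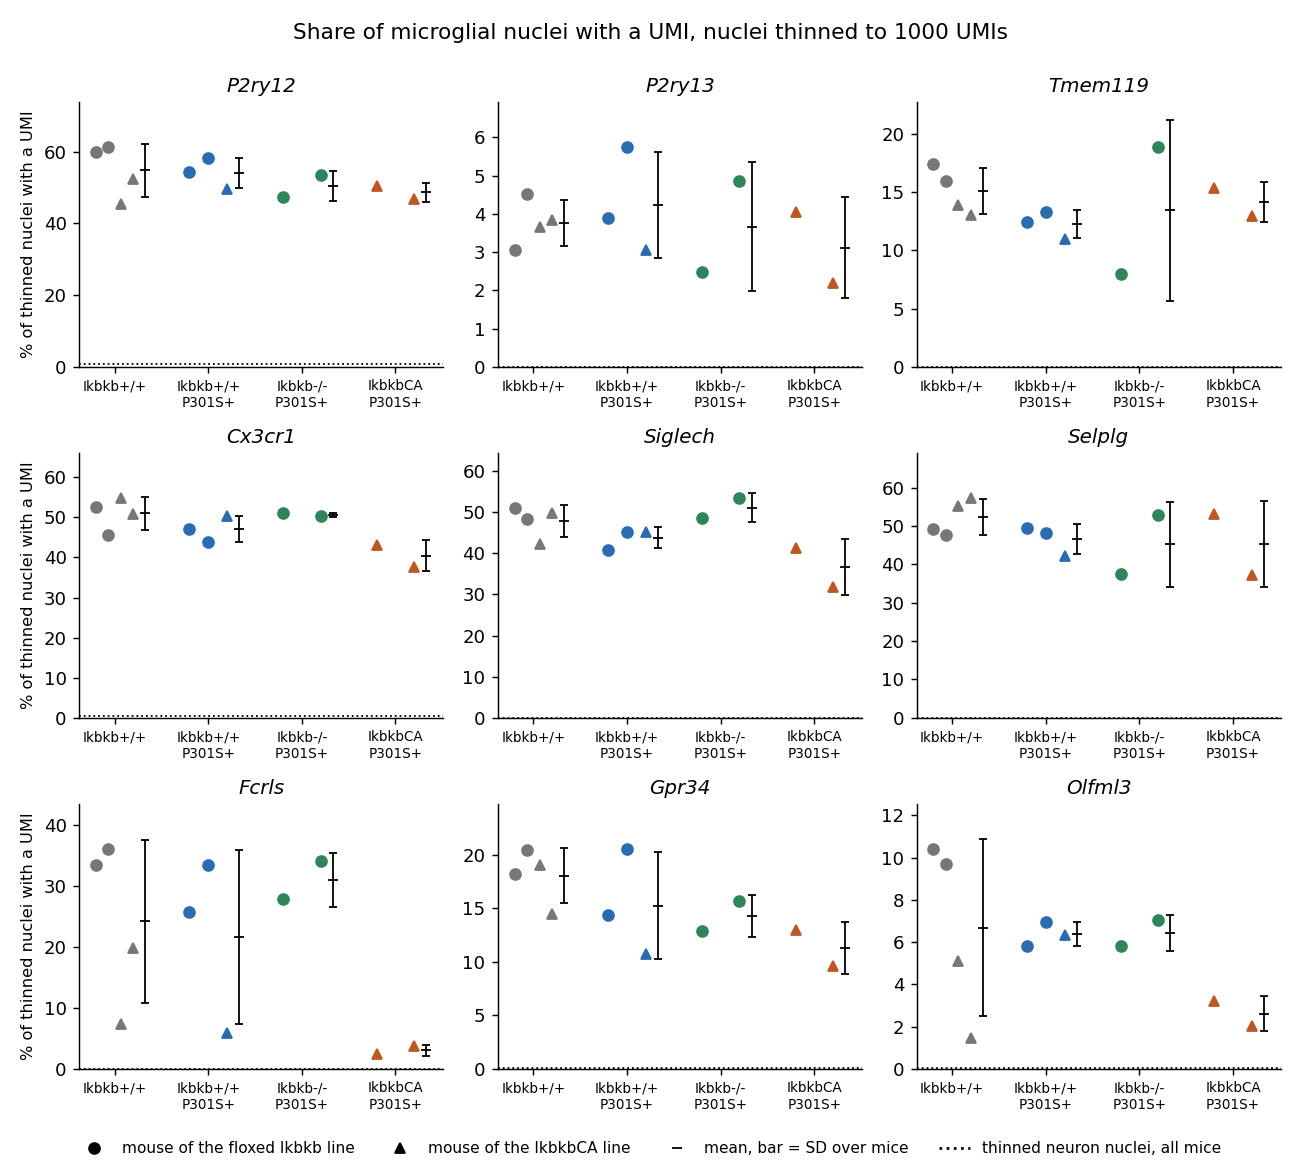
Share of microglial nuclei (vertical axes, %) with at least 1 UMI of each gene after thinning every nucleus to 1000 UMIs, by genotype, with symbols as in the plot of levels. The dotted line is the share in thinned neuronal nuclei, which was at most 0.873%, and for Fcrls all 3 P301S and non-transgenic mice of the IkbkbCA line lay under the 4 of the floxed Ikbkb line.

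A thinned nucleus held UMIs of 1.84 and 2.26 of the 9 genes on average in the active IKKβ mice. The averages were 2.95, 2.90, 2.47 and 2.63 genes in the non-transgenic, 2.54, 2.75 and 2.24 in the P301S and 2.41 and 2.91 in the knockout mice. Neuronal nuclei averaged 0.006 to 0.026 genes. Nuclei with none of the 9 genes made up 8.24 and 15.5% in the active IKKβ mice and 0.541 to 8.86% in the other mice. These ranges overlapped, since P301S replicate 3 was at 8.86% and non-transgenic replicate 3 at 8.79%. Nuclei with 5 or more of the genes made up 2.52 and 4.05% in the active IKKβ mice and 5.03 to 12.97% in the others.

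Among mice with unaltered Ikbkb, Fcrls also differed between the breeding lines. In a fit with genotype and line, Fcrls was lower in the IkbkbCA line by a log2 fold change of -1.99 ± 0.26 (adjusted p = 0.00215). The 4 control mice of the floxed Ikbkb line lay at 280 to 497 CPM and the 3 of the IkbkbCA line at 51.2 to 211 CPM. It was the only member called (1 of 9), against 0.134% of all genes tested, or 13 genes. P2ry12 gave -0.57 ± 0.14 (adjusted p = 0.16), Olfml3 -0.95 ± 0.25 (adjusted p = 0.23) and P2ry13 -0.60 ± 0.26 (adjusted p = 0.641). The control mice of the IkbkbCA line lay wholly under those of the floxed Ikbkb line for these 4 members, as they did for 3.26% of all genes. These 4 are the members on chromosome 3. The 5 members on other chromosomes overlapped between lines and gave -0.38 ± 0.18 (Gpr34, on chromosome X, adjusted p = 0.668) to 0.07 (Cx3cr1). Over the other 479 genes tested on chromosome 3, 4.80% lay wholly lower in the IkbkbCA line, against 3.14% of the 9196 genes on other chromosomes. Among the other autosomes and X, this share ran from 0.631% (chromosome 19) to 5.23% (chromosome X), so chromosome 3 lay within that range. Of the 13 genes called, 3 were on chromosome 3, namely Fcrls, Tmem144 (-2.02 ± 0.28) and Fcrl1 (-3.27 ± 0.62), a relative of Fcrls. Tmem144 starts at 79812564 and Fcrl1 at 87376387 on chromosome 3. What the lines differ in was not tested.

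**Figure D4:**
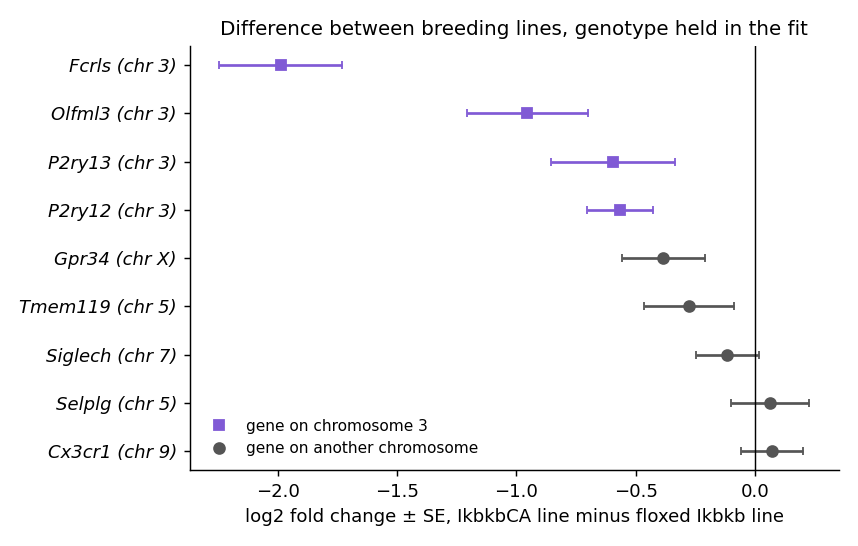
Log2 fold change ± SE (horizontal axis) of the 9 genes between the IkbkbCA line and the floxed Ikbkb line, with genotype in the fit. Squares are the 4 genes on chromosome 3, which lay between -1.99 and -0.57, and circles the 5 genes elsewhere, which lay between -0.38 and 0.07.

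Because every active IKKβ mouse was of the IkbkbCA line, the contrasts above were read again with the line in the fit. Fcrls against non-transgenic mice was then -2.01 ± 0.34 (adjusted p = 0.00267). Among mice of the IkbkbCA line alone, where the non-transgenic mice were at 94.1 and 211 CPM, it was -2.24 ± 0.32 (adjusted p = 0.000773). Against P301S mice Fcrls shrank to -1.17 ± 0.38 (adjusted p = 0.324) with the line in the fit. Within the line, where the only P301S mouse was at 51.2 CPM, it was -0.64 ± 0.39 (adjusted p = 0.958). Against knockout mice it was -1.67 ± 0.42 (adjusted p = 0.178). No line holds both active IKKβ and knockout mice, so that last value leans on the line difference seen in the control mice. Olfml3 against non-transgenic mice went from -1.15 to -0.59 ± 0.32 with the line and to -0.24 ± 0.34 within the line. P2ry12 went from -0.31 to 0.02 ± 0.17. Siglech, at -0.52 ± 0.16, and Cx3cr1, at -0.55 ± 0.16 (adjusted p = 0.104), moved little. The lone P301S mouse within the line was taken to vary like the other groups.

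Over the 11 mice, the likeness of the members was described pair by pair, and no clustering was run. By Pearson's correlation of log2 CPM, given as a description over mice that share genotype and line, P2ry13 was most like Gpr34 among the members (r = 0.88) and Cx3cr1 most like Siglech (r = 0.85). Selplg was most like Tmem119 (r = 0.714), and P2ry12 most like Olfml3 (r = 0.728), with P2ry13 close behind (r = 0.704). Among all genes tested, the most similar member held rank 5 for Cx3cr1 (Siglech) at best and rank 219 for Fcrls (also Siglech) at worst. The weakest pair was Selplg and Olfml3 (r = 0.0418). Outside the list the nearest genes were Dusp16 for P2ry12 (r = 0.919), St3gal6 for P2ry13 (r = 0.961), Bin2 for Tmem119 (r = 0.926), Scamp2 for Cx3cr1 (r = 0.916) and Eif4g3 for Siglech (r = 0.898). They were Usp24 for Selplg (r = 0.917), Slc7a8 for Fcrls (r = 0.947), Pde3b for Gpr34 (r = 0.945) and Kdm2b for Olfml3 (r = 0.935). Each of these was the highest of 9679 genes over 11 points, so such values are high by selection.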

How the data were processed

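Nuclei sorted from frozen cortex were sequenced with the 10x Chromium 3′ kit, version 3. Per the labels and the study's methods, the authors aligned reads with Cell Ranger 3.1.0 to an mm10 reference that includes unspliced transcripts and deposited raw UMI counts per gene and barcode for each of 11 mice. Cell Ranger counts reads on the strand of the gene, and all groups were taken from the labels, with the breeding line from the title prefix. Replicates are separate mice.

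From these counts, nuclei were kept if they had 300 to 8000 genes and no more than 5% of mitochondrial UMIs. They were gated by at least 3 of 6 genes, and nuclei with at least 3 of 6 markers of another brain class were left out in place of a doublet caller. Counts were summed per mouse. The 9679 genes that passed filterByExpr went into the quasi-likelihood test of edgeR 4.0.16 after TMM scaling, in 1 fit of all 11 mice with a term per genotype. Calls needed a p under 0.05 after Benjamini-Hochberg adjustment over all genes and an absolute log2 fold change over 0.1. These are the limits in the study's results for its own test of single nuclei. CPM of the members and list genes use the TMM factors, and standard errors are the fold change over the square root of F. The breeding line was tested with a term for line beside genotype. Shares of nuclei were taken after thinning to 1000 UMIs, which left out 28 nuclei. On simulated counts for P301S against non-transgenic, knockout against P301S and active IKKβ against P301S mice, in that order, the fit recovered 54, 49 and 53% of genes changed 2-fold and 92, 89 and 94% of genes changed 4-fold, with 7.01, 2.82 and 6.96% false calls. These counts were drawn with 1 mean per gene and the trend of spread over genes, with no line or age effect. Recovery may therefore differ for genes that vary more between mice, such as Fcrls. The other contrasts and the line were not simulated.

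Alternatives were DESeq2 1.42.0, no filter on low counts, other gates, other sets of nuclei, line, age or title number in the fit, fewer groups, and each mouse left out in turn. Replicates are numbered in accession order, which pairs no mice. For the pairing check and the replicate block, the number that ends each title was used (1 or 2, repeated in both lines). Mice that share it had deviations correlated at a median of 0.021 (-0.0759 to 0.0946), and the mice were not taken as paired. The check pools both lines, and in groups of 2 the deviations mirror each other, so it cannot exclude a pairing. In the IkbkbCA line, non-transgenic replicate 3 and active IKKβ replicate 1 share number 1 and an age of 10.85 months. Non-transgenic replicate 4 and active IKKβ replicate 2 share number 2 and 9.8 months. A pairing within the line was not tested. Coordinates come from GENCODE M21. The members and lists were chosen with earlier results of these data known. The text names all members, the list genes called in a comparison and, for each member, the gene with the most similar levels. Lpl, Apoe, Tyrobp and Trem2 were named after their values were seen.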

Additional observations from a re-analysis of the deposited data

How the results depend on the processing

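Log2 fold changes that passed a test kept their direction: of 1485 refitted log2 fold changes, 0 called values changed sign, 22 lost their call and 28 gained one. The count of members called (0 against P301S, 2 against non-transgenic and 1 against knockout mice for active IKKβ, 1 for the line) moved as follows. Without a filter on low counts it was 2, 4 and 3, 3 for the line and 1 for knockout against P301S mice, where 1.49%, 2.56%, 1.46%, 0.489% and 0.114% of all genes were called. There the prior degrees of freedom were infinite over 21073 genes, against 11.9 over 9679, so that edgeR did not use each gene's own spread. Active IKKβ against P301S gave 1 (Fcrls) with the replicate block (the title number), a gate of 4 genes, other leukocytes left out, thinned nuclei, or nuclei over 5000 UMIs left out, where 0.951 to 1.62% of all genes were called. Active IKKβ against non-transgenic mice gave 1 (Fcrls), without Siglech, with the replicate block, the line, age, a gate of 2 genes, nuclei with markers of another class kept, only the 2 groups in the fit, or the IkbkbCA line alone, at 1.36 to 3.64% of all genes. Active IKKβ against knockout mice gave 0 with the line or age, at 0.145% and 0.0413% of all genes, and 2 in thinned nuclei (with Siglech) or with only the 2 groups in the fit (with Olfml3), at 1.58% and 1.81%. The line gave 2 with age, in thinned nuclei and without nuclei over 5000 UMIs, at 0.134%, 0.416% and 0.282%. The block changed no other call. Of 108 refitted group means of the shares of nuclei, 43 moved by 1 SD between mice or more. At each nucleus's own depth 35 of 36 did, and all 36 were higher. For Siglech the means were then 60.8% in active IKKβ and 62.6% in P301S mice, against 36.6% and 43.8% after thinning. A gate of 2 genes moved 3 of 36 and a gate of 4 genes 5 of 36.

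Leaving out 1 mouse at a time gave 0 to 1, 0 to 3, 0 to 1 and 1 to 3 members for active IKKβ against P301S, non-transgenic and knockout mice and for the line, and 0 elsewhere. The shares of all genes called ranged from 0.418 to 2.14%, 0.886 to 4.02%, 0.437 to 1.83% and 0.053 to 0.29% in that order. Fcrls against knockout mice lost its call without knockout replicate 2 (-3.44, adjusted p = 0.0617) or active IKKβ replicate 1 (-3.34, 0.095) or 2 (-4.03, 0.0602). Siglech against non-transgenic mice kept its call only without non-transgenic replicate 3, P301S replicate 3 or active IKKβ replicate 1, and ranged from -0.83 to -0.37. The line gave 3 (with P2ry12 and Olfml3) without P301S replicate 3. The line-alone and 5000-UMI settings and the list genes with the line in the fit were chosen after seeing the data. P2ry13 and Olfml3 rest on 325 and 578 UMIs over all mice. Groups of 2 mice limit every contrast with knockout or active IKKβ mice.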

Other observations

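In a fit of the 7 mice with unaltered Ikbkb, the P301S difference was also compared between the breeding lines. No member passed (0 of 9 by edgeR, adjusted over 8130 genes, lowest adjusted p = 0.195). The difference of log2 fold changes, IkbkbCA line minus floxed Ikbkb line, was -1.17 for Fcrls (adjusted p = 0.195), 1.20 for Olfml3 (adjusted p = 0.227) and 0.52 for P2ry12 (adjusted p = 0.399). At an unadjusted p under 0.05 there were these 3 of 9, where 10.5% of all genes were. The IkbkbCA line holds 1 P301S mouse, so these values rest on that mouse. No value of a non-transgenic mouse stood apart from the other 3 by Dixon's test in any of 18 sets of levels and shares. These mice come from both lines, and a difference between lines widens their range. With so few values the test can hardly flag a single mouse, so nothing is concluded from it.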
